A study of Mus musculus with 24 samples.

Results

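The genes described here are the chemokines and chemokine receptors measured in mouse liver. They were all the probe sets that mapped to 1 gene symbol beginning with Ccl, Cxcl, Ccr or Cxcr followed by a digit, without pseudogenes, with the probe set of the highest mean kept for each gene. The rule gave 48 genes of the 18820 with a symbol: 19 CC ligands, 13 CXC ligands, 10 CC receptors and 6 CXC receptors. It used no measured difference between groups. Ccl19 had 5 probe sets and Ccl25 had 2, which all changed in the same direction, and the other 46 genes had 1 each.

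Chemokines are small secreted proteins that guide leukocytes through tissues by binding G protein-coupled receptors on their surface. The CC and CXC families are named for the spacing of the first cysteines in the protein, and ligands of one family mostly bind receptors of the same family. In liver they are made by hepatocytes, resident macrophages (Kupffer cells), endothelial and stellate cells, and they control how many monocytes, neutrophils and lymphocytes enter from the blood. FXR, the bile acid receptor encoded by Nr1h4, is known to repress NF-kappaB-driven inflammatory genes in liver.

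Livers of 24 male C57BL/6 mice, 9 to 12 weeks old at the start of dosing and fed chow, were measured on 1 whole-transcript array per mouse, 6 mice in each of 4 groups. FXR-/- mice, called knockouts here, received either obeticholic acid (OCA, INT-747, a semi-synthetic FXR agonist) at 10 mg/kg/day or the vehicle, 1% methyl cellulose. Wild-type mice received the same OCA dose or the same vehicle. All mice were gavaged daily for 7 days and the livers were snap frozen. The labels give no tissue or cell type to which the deletion is limited.

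Values are the deposited RMA log2 signals. Array medians over all probe sets lay between 4.57 and 4.65, and the precision was limited by the 6 arrays a group. Nr0b2, which encodes the FXR target SHP, had 3.57 to 4.82 in OCA-treated knockout livers, 3.40 to 4.60 in vehicle-treated knockout livers, 7.31 to 8.62 in OCA-treated wild-type livers and 5.87 to 7.30 in vehicle-treated wild-type livers. By limma with Benjamini-Hochberg adjustment over all genes, which gives every adjusted p below, it changed by −2.62 ± 0.25 on the log2 scale in knockouts with vehicle (SE, adjusted p = 1.21e-08) and by −3.83 ± 0.25 with OCA (adjusted p = 1.24e-11). Nr1h4 itself differed by −0.14 ± 0.07 (adjusted p = 0.146) between knockout and wild type with OCA and by −0.17 ± 0.07 (adjusted p = 0.0935) with vehicle. The sources used here do not say whether its probe set lies in the deleted part of the gene, so it checks nothing about the labels. The 10 hepatocyte markers averaged 12.3 to 12.8 per array, near the top of the scale, which ran to 13.6. One array stood apart: in wild-type vehicle mouse 6, 532 genes differed by more than 2-fold from the average of its 5 group mates, against 2 to 90 genes in any further array. Because the tissue was bulk liver, a lower signal from fewer cells of a type and one from less RNA per cell cannot be told apart.

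No member carried a detection call. The mean over all arrays lay below the median gene (5.28) for 35 of the 48 genes and below the 25th percentile of genes (3.29) for 18, among them 9 of the 16 receptors, where a small difference may not be detectable. The 13 genes at or above the median gene included the hepatic ligands Cxcl12, Cxcl9 and Ccl9. Of the 47 genes with a listed position, 14 lay on chromosome 11, 10 on chromosome 5 and 9 on chromosome 9, where the mouse CC ligand, CXC ligand and CC receptor genes are clustered.

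The 250 bases before the annotated start of 4 ligand genes, picked with their results known, are given. Of these genes Cxcl10, Cxcl9 and Ccl19 were called higher in knockout livers, and Cxcl1 was called in no comparison. The coordinates and sequences are those of RefSeq on build GRCm38.p6, 5′ to 3′ on the strand of the gene. Capitals mark matches on either strand to the interferon-response element (GAAA, 2 bases of any kind, GAAA), the NF-kappaB motif, the AP-1 motif TGANTCA or the FXR inverted repeat (GGTCA and TGACC, 1 base apart). Cxcl10 and Cxcl9 are neighbouring interferon-induced ligands that were both higher in knockout livers.
Cxcl10 (chr5:92348890-92349139, minus strand): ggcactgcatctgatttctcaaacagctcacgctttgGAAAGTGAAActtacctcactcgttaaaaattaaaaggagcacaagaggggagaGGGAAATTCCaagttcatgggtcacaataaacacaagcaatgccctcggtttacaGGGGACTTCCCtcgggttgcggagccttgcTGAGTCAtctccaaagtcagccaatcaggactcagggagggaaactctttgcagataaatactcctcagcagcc
Cxcl9 (chr5:92328080-92328329, minus strand): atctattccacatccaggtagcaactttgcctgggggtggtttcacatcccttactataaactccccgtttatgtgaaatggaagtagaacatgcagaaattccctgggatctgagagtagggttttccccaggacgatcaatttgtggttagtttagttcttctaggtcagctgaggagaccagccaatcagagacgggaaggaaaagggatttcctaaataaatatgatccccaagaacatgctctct
Ccl19 (chr4:42756366-42756615, minus strand): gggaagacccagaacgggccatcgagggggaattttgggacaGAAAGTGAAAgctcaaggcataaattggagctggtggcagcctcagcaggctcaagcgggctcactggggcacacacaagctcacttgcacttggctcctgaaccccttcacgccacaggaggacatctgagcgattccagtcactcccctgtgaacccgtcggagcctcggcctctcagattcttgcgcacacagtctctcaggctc
Cxcl1 (chr5:90890995-90891244, plus strand): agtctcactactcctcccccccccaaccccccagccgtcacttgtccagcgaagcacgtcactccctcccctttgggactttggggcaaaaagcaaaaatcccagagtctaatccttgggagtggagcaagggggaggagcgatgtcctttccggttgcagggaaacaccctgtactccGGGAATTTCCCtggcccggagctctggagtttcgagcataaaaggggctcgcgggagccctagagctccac
The Cxcl10 window held 1 interferon-response match with its first base at −213, counted from −1 at the base before the start, 3 NF-kappaB matches at −159, −104 and −103, the last 2 overlapping, and 1 AP-1 match at −74. The Cxcl9 window held none of the 4 motifs, although the signals of both genes were higher in knockout livers. Ccl19, which was also higher in knockout livers, had 1 interferon-response match at −208. Cxcl1, whose signal ran from 5.47 to 10.33 among wild-type vehicle mice, had 2 overlapping NF-kappaB matches at −71 and −70.

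Promoters were matched for 34 of the 48 genes, 36 promoters in all. NF-kappaB matches stood in 10 of these (27.8%), against 7.25% of the 32851 promoters of the same length. The interferon-response motif stood in 3 (8.33%, against 2.98% of all) and the AP-1 motif in 4 (11.1%, against 6.75%). The FXR inverted repeat stood in 0 of the 36, and in 0.0335% of all promoters. Such matches describe the letters in the window and do not show that a factor binds there. The NF-kappaB matches were in the promoters of Cxcl1, Cxcl2, Cxcl3, Cxcl10, Ccl1, Ccl9, Ccl20, Ccr1, Ccr3 and Ccr6. Of these genes Cxcl10 was called higher in both knockout comparisons and Ccr3 with OCA alone, and the other 8 were called in neither. The promoters of Ccl3, Ccl6, Ccl25, Ccr2 and Cxcr4, all called in both comparisons and not printed above, held none of the 4 motifs. The called genes Ccl2, Ccl5, Ccl24 and Cxcl16 had no matched promoter and were not examined.

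Some ligands and receptors, led by Ccl3, Cxcl10 and Ccl19, were higher in knockout livers, and most of the 48 genes were not called. In vehicle-treated livers 14 of the 48 genes differed between knockout and wild type at adjusted p < 0.05, 11 higher and 3 lower, or 29.2%. Each ± beside a difference is the standard error of the fit. Of all 18820 genes 27.5% were called in that comparison, 15.4% higher and 12.1% lower. With OCA in both genotypes 12 members differed (25%), 11 higher and 1 lower, against 30.7% of all genes, 17.4% higher and 13.3% lower. The chemokine genes were thus called about as often as any other gene. The median change over the 48 genes was 0.06 with vehicle and 0.02 with OCA, against −0.03 and −0.02 over all genes.

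The 2 comparisons share no array, but their standard errors come from the same fit to all 24 arrays. In both comparisons 10 genes were called, each in the same direction. Higher in both were Ccl2, Ccl3, Ccl6, Ccl19, Cxcl9, Cxcl10, Cxcl16, Ccr2 and Cxcr4, and Ccl25 was lower in both. These 10 are 71.4% of the members called with vehicle and 83.3% of those called with OCA. Over all genes 3939 were called in both in the same direction, 76.1% and 68.1% of the calls. Ccl22, Ccl24, Cxcl13 and Cxcl14 were called with vehicle alone, and Ccl5 and Ccr3 with OCA alone. Whether the genotype difference itself changed with OCA was tested by the difference of the OCA effects, which called none of the 48.

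The split into higher and lower depended on the scaling. Centring each array on its median over all genes shifts every knockout change by −0.17 with vehicle and −0.19 with OCA. Relative to that shift, 8 members were called higher and 10 lower with vehicle, and 9 higher and 16 lower with OCA. The share of all genes called with that centring was not computed, so these counts show nothing particular to the members. Of the 10 genes called in both comparisons, 8 were still called in both with that centring. The exceptions were Ccl6 (0.60, adjusted p = 0.0626) and Cxcl9 (0.47, adjusted p = 0.0554), both with vehicle. All 10 kept their direction.

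**Figure D1:**
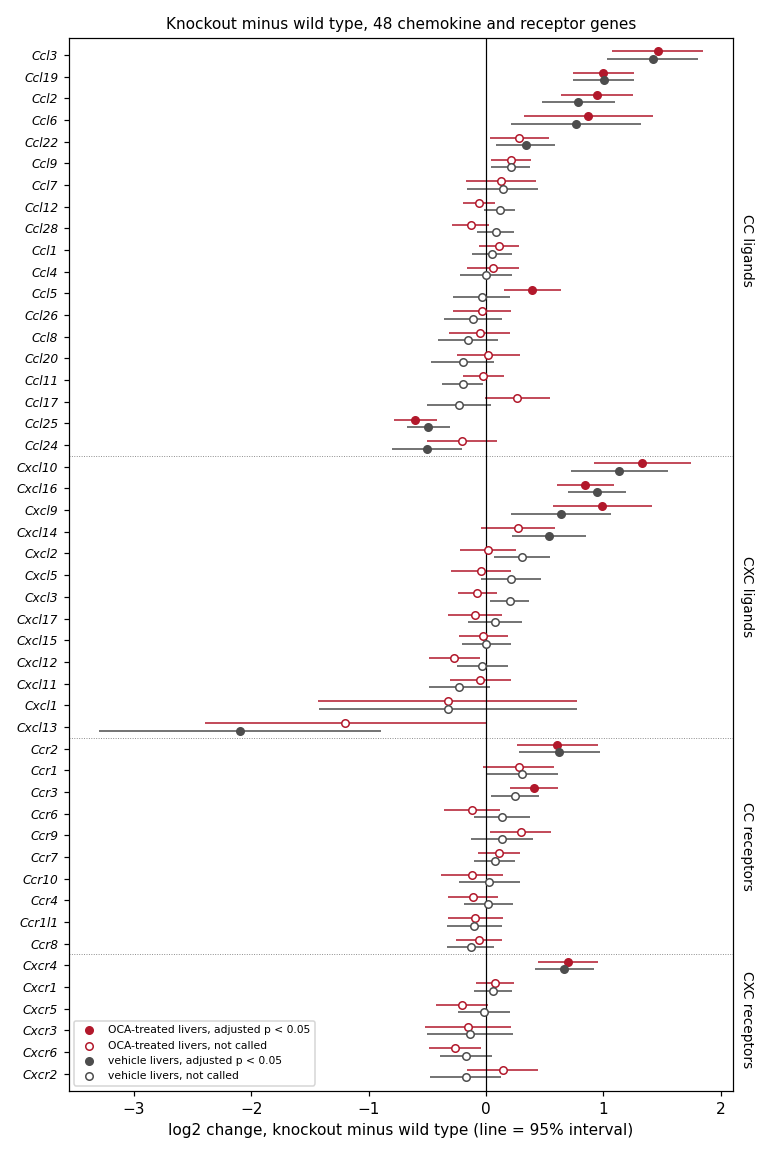
Log2 change of each of the 48 genes, knockout minus wild type, in OCA-treated livers (red, upper point of each row) and vehicle livers (grey, lower point), n = 6 mice a group, with 95% intervals. Filled points have adjusted p < 0.05. Ccl3, Cxcl10 and Ccl19 lie near or above 1 in both comparisons, Ccl25 lies below 0 in both, and the interval of Cxcl13 is the widest.

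The monocyte axis of Ccl2 and its receptor was higher in knockout livers. Ccl2, the ligand that draws monocytes out of the bone marrow and into tissue, had lowest, median and highest log2 signals with vehicle of 4.20, 4.53 and 4.69 in knockout livers, against 3.21, 3.61 and 4.17 in wild-type livers. With OCA these were 4.43, 4.64 and 4.88 in knockout livers, against 3.37, 3.64 and 4.16 in wild-type livers. The ranges did not overlap in either comparison. The difference was 0.79 ± 0.15 on the log2 scale with vehicle (1.72-fold, adjusted p = 2.29e-04) and 0.94 ± 0.15 with OCA (1.92-fold, adjusted p = 2.07e-05). Ccr2, the receptor of Ccl2 on inflammatory monocytes, had 4.19, 4.44 and 4.93 in knockout livers, against 3.51, 3.74 and 4.55 in wild-type livers, with vehicle. With OCA it had 4.17, 4.51 and 5.06 in knockout livers, against 3.68, 3.92 and 4.35 in wild-type livers. It was 0.63 ± 0.17 higher with vehicle (adjusted p = 0.00574) and 0.61 ± 0.17 higher with OCA (adjusted p = 0.00636), although the ranges overlapped in both. In wild-type vehicle livers the highest Ccr2 value, 4.55, came from mouse 6. Without that mouse the group averaged 3.71.

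Ccl2 has neighbours on chromosome 11 that encode related ligands, and these did not pass the test. Ccl7, a further ligand of Ccr2, differed by 0.14 ± 0.15 with vehicle (adjusted p = 0.518) and 0.13 ± 0.15 with OCA (adjusted p = 0.559). Ccl12, a mouse ligand of Ccr2, differed by 0.11 ± 0.06 with vehicle and −0.06 ± 0.06 with OCA (adjusted p = 0.2 and 0.529). Ccl11, the eosinophil ligand eotaxin, differed by −0.20 ± 0.08 and −0.02 ± 0.08 (adjusted p = 0.0795 and 0.874). Ccl8 and Ccl1, the other genes of that row, lay between −0.15 and 0.11 in both comparisons. With median centring Ccl11 (−0.37, adjusted p = 0.00056) and Ccl8 (−0.32, adjusted p = 0.0323) were called lower with vehicle, and Ccl11 (−0.21, adjusted p = 0.0229) and Ccl12 (−0.25, adjusted p = 0.00312) with OCA.

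Ccl3 showed the largest rise of the 48 genes in both comparisons. Ccl3, or MIP-1 alpha, is made by activated macrophages and binds Ccr1. With vehicle it had 4.42, 5.03 and 5.28 in knockout livers, against 3.26, 3.53 and 3.77 in wild-type livers, and with OCA 4.68, 5.14 and 5.82 in knockout livers, against 3.35, 3.46 and 4.30 in wild-type livers. All knockout values exceeded all wild-type values. The change was 1.42 ± 0.19 with vehicle (2.67-fold, adjusted p = 1.78e-06) and 1.46 ± 0.19 with OCA (2.75-fold, adjusted p = 9.78e-07). Ccl4, or MIP-1 beta, the adjacent gene, had a change of 0.00 ± 0.11 with vehicle (95% interval −0.22 to 0.22, adjusted p = 0.993) and 0.06 ± 0.11 with OCA (95% interval −0.16 to 0.28, adjusted p = 0.725). The Ccl4 intervals lie below the whole Ccl3 interval in both comparisons. Ccr1, a receptor of Ccl3, differed by 0.31 ± 0.15 with vehicle and 0.28 ± 0.15 with OCA and was not called (adjusted p = 0.121 and 0.162).

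Ccl6 and Ccl9 are mouse ligands of Ccr1 encoded next to Ccl3. For Ccl6 the knockout livers were tightly grouped and the wild-type livers were spread. It had 6.71, 6.95 and 7.11 in knockout livers, against 5.42, 5.94 and 7.79 in wild-type livers, with vehicle, and 6.72, 6.89 and 7.02 in knockout livers, against 5.63, 5.79 and 6.67 in wild-type livers, with OCA. The knockout mean was 0.77 ± 0.27 higher with vehicle (adjusted p = 0.0341) and 0.87 ± 0.27 higher with OCA (adjusted p = 0.014). Wild-type vehicle mouse 6 gave the 7.79. Without it the vehicle difference was 1.09 ± 0.18 (adjusted p = 4.00e-05), whereas leaving out any 1 of 6 other mice (wild-type vehicle mice 1, 2 and 3, knockout vehicle mice 1, 3 and 4) ended the call. Ccl9 had 9.75, 9.96 and 10.09 in knockout livers, against 9.45, 9.78 and 9.99 in wild-type livers, with vehicle, and 9.98, 10.07 and 10.26 in knockout livers, against 9.69, 9.90 and 10.02 in wild-type livers, with OCA. Its differences of 0.21 ± 0.08 and 0.21 ± 0.08 missed the threshold (adjusted p = 0.0614 with vehicle and 0.0509 with OCA). Some other fits called Ccl9 higher, with adjusted p of 0.041 with vehicle and 0.033 with OCA under trend and robust variances. Median centring and quantile normalization did not call it.

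Ccl5, or RANTES, a T cell and monocyte ligand of Ccr1, was called with OCA alone. It had 5.80, 6.00 and 6.18 in knockout livers, against 5.26, 5.62 and 5.97 in wild-type livers, with OCA, a difference of 0.40 ± 0.12 (adjusted p = 0.0111). With vehicle it had 5.72, 5.86 and 6.05 in knockout livers, against 5.41, 5.93 and 6.20 in wild-type livers, a difference of −0.04 ± 0.12 (adjusted p = 0.856). The test of the difference between these was 0.43 ± 0.17 (adjusted p = 0.72). The OCA call was lost with median centring (0.20, adjusted p = 0.130), with quantile normalization (0.27, adjusted p = 0.0756) and without the 4 arrays whose names end in _2.

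**Figure D2:**
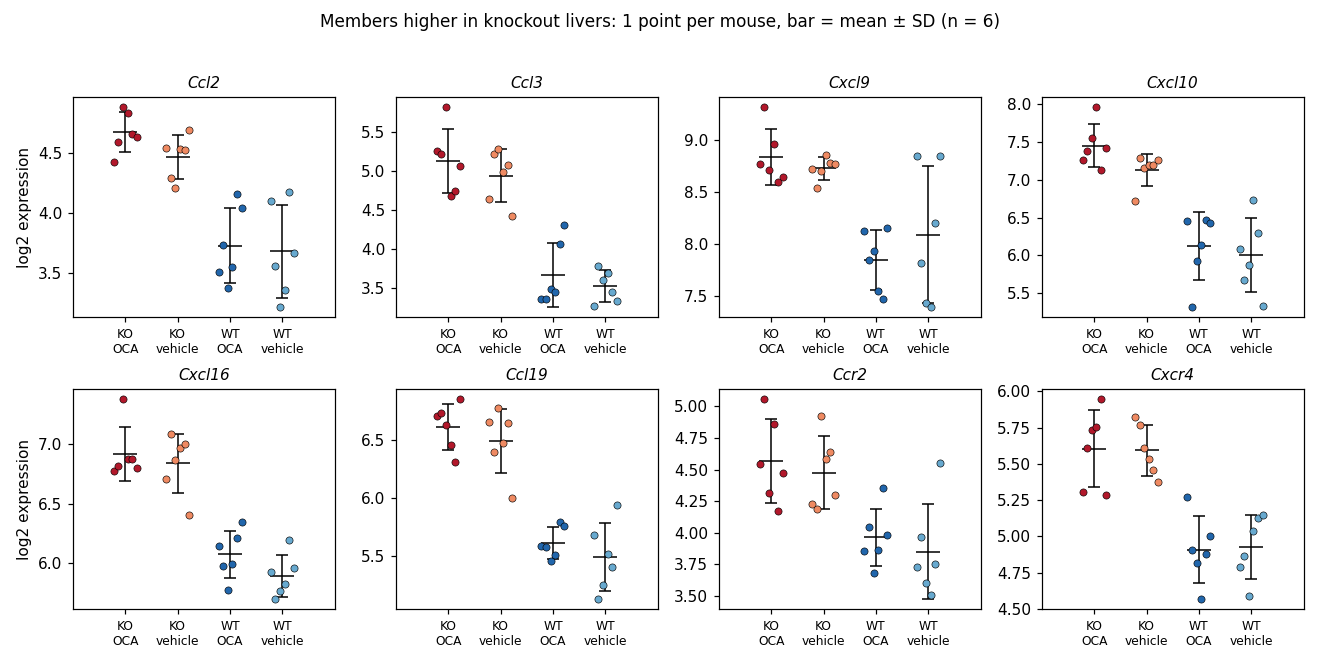
Log2 signal of 8 genes higher in knockout livers, in the order OCA-treated knockout, vehicle-treated knockout, OCA-treated wild type and vehicle-treated wild type; each point is 1 mouse and bars are mean ± SD (n = 6). For Ccl2, Ccl3, Cxcl16, Ccl19 and Cxcr4 every knockout point lies above every wild-type point of the same treatment, while 2 wild-type vehicle mice at 8.85 overlap the knockouts for Cxcl9.

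Of the interferon-induced ligands, Cxcl9 and Cxcl10 were higher in knockout livers and Cxcl11 was not called. All 3 bind Cxcr3, the receptor of activated T cells and NK cells. Cxcl10 had 6.71, 7.19 and 7.29 in knockout livers, against 5.33, 5.98 and 6.73 in wild-type livers, with vehicle, and 7.13, 7.40 and 7.96 in knockout livers, against 5.32, 6.29 and 6.47 in wild-type livers, with OCA. Only with vehicle did 1 value cross: the lowest knockout mouse, 6.71, lay just under the highest wild-type mouse, 6.73. Cxcl10 was 2.19-fold higher with vehicle (1.13 ± 0.20, adjusted p = 9.23e-05) and 2.51-fold higher with OCA (1.33 ± 0.20, adjusted p = 9.77e-06). Cxcl9 had 8.54, 8.75 and 8.86 in knockout livers, against 7.39, 8.01 and 8.85 in wild-type livers, with vehicle. With OCA it had 8.60, 8.75 and 9.32 in knockout livers, against 7.47, 7.89 and 8.15 in wild-type livers, and there the groups did not overlap. The changes were 0.64 ± 0.21 with vehicle (adjusted p = 0.0213) and 0.99 ± 0.21 with OCA (adjusted p = 4.88e-04). The vehicle call was lost without wild-type vehicle mouse 2 (0.58, adjusted p = 0.0502), mouse 3 (0.51, adjusted p = 0.0664) or mouse 4 (0.50, adjusted p = 0.0675).

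Cxcl11 had 5.36, 5.69 and 5.82 in knockout livers, against 5.30, 5.93 and 6.13 in wild-type livers, with vehicle, and 5.55, 5.79 and 6.12 in knockout livers, against 5.52, 5.94 and 6.15 in wild-type livers, with OCA, and was not called (adjusted p = 0.195 and 0.816). With vehicle it was called lower under median centring (−0.39, adjusted p = 0.00925) and quantile normalization (−0.35, adjusted p = 0.0257). Cxcr3 had 3.27, 3.63 and 3.68 in knockout livers, against 3.36, 3.70 and 4.09 in wild-type livers, with vehicle, and 3.00, 3.71 and 3.93 in knockout livers, against 3.03, 3.78 and 4.48 in wild-type livers, with OCA. Its differences were −0.14 ± 0.18 (95% interval −0.51 to 0.23) and −0.15 ± 0.18 (95% interval −0.52 to 0.22). Cxcl9 and Cxcl10 thus rose without a called change in their receptor. The 8 measured T cell markers had 1 called lower (Cd4) with vehicle and none called with OCA, and of the 7 NK cell markers 1 was called higher (Klrd1) with vehicle and none with OCA. The T cell marker sum per array, on the linear signal scale, ran from 120.5 to 132.3 in OCA-treated knockout livers, 115.9 to 137.0 in vehicle-treated knockout livers, 123.7 to 150.1 in OCA-treated wild-type livers and 118.4 to 220.9 in vehicle-treated wild-type livers.

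Cxcl16 and Ccl19 were about 2-fold higher in both comparisons with little spread. Cxcl16, a membrane-anchored ligand that also acts as a scavenger receptor, had 6.41, 6.92 and 7.09 in knockout livers, against 5.70, 5.87 and 6.20 in wild-type livers, with vehicle, and 6.78, 6.84 and 7.38 in knockout livers, against 5.78, 6.07 and 6.35 in wild-type livers, with OCA. Neither comparison overlapped. It was 1.93-fold higher with vehicle (0.95 ± 0.12, adjusted p = 7.72e-07) and 1.80-fold higher with OCA (0.85 ± 0.12, adjusted p = 3.41e-06). Its receptor Cxcr6, found on NKT and tissue-resident T cells, differed by −0.17 ± 0.11 with vehicle and −0.26 ± 0.11 with OCA (adjusted p = 0.248 and 0.0617). Median centring called Cxcr6 lower with vehicle (−0.34, adjusted p = 0.0132) and with OCA (−0.45, adjusted p = 0.00143). Array weights called it lower with OCA (−0.30, adjusted p = 0.0152).

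Ccl19, which draws Ccr7-bearing dendritic cells and naive T cells to lymphoid tissue, had 6.01, 6.56 and 6.77 in knockout livers, against 5.13, 5.47 and 5.94 in wild-type livers, with vehicle. With OCA it had 6.31, 6.67 and 6.85 in knockout livers, against 5.46, 5.58 and 5.80 in wild-type livers. The groups did not overlap and the change was 1.00 ± 0.13 with vehicle (adjusted p = 9.66e-07) and 1.00 ± 0.13 with OCA (adjusted p = 8.67e-07). Across its 5 probe sets the change was 0.99 to 1.06 with vehicle and 0.94 to 1.07 with OCA. The mouse genome holds several near-identical copies around Ccl19, so these probe sets may share signal. Ccr7 had 4.45, 4.68 and 4.82 in knockout livers, against 4.49, 4.60 and 4.76 in wild-type livers, with vehicle, and 4.44, 4.62 and 4.98 in knockout livers, against 4.35, 4.53 and 4.72 in wild-type livers, with OCA. It was not called (adjusted p = 0.59 and 0.368).

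Cxcr4, the receptor of Cxcl12 on most leukocytes, was higher in knockout livers, and its ligand was not called. It had 5.37, 5.57 and 5.82 in knockout livers, against 4.59, 4.95 and 5.15 in wild-type livers, with vehicle, and 5.29, 5.67 and 5.94 in knockout livers, against 4.57, 4.89 and 5.27 in wild-type livers, with OCA. No values crossed, and it was 0.67 ± 0.12 higher with vehicle (adjusted p = 1.50e-04) and 0.70 ± 0.12 higher with OCA (adjusted p = 7.64e-05). Cxcl12, made by stellate and endothelial cells in liver, had 8.79, 9.01 and 9.07 in knockout livers, against 8.44, 9.10 and 9.13 in wild-type livers, with vehicle, and 8.67, 8.94 and 9.02 in knockout livers, against 8.83, 9.22 and 9.33 in wild-type livers, with OCA. Its change was −0.03 ± 0.10 with vehicle (adjusted p = 0.861) and −0.27 ± 0.10 with OCA (adjusted p = 0.0509). The OCA value passed the threshold in other fits, with adjusted p of 0.00772 under array weights and 0.0387 with trend and robust variances.

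Ccr3, the eosinophil receptor, was called with OCA alone. It had 2.83, 3.10 and 3.37 in knockout livers, against 2.55, 2.66 and 2.74 in wild-type livers, with OCA, with no overlap and a change of 0.41 ± 0.10 (adjusted p = 0.00239), but all its values lay below the 25th percentile of genes apart from the highest, 3.37. With vehicle it had 2.73, 3.10 and 3.18 in knockout livers, against 2.58, 2.75 and 3.19 in wild-type livers, a change of 0.24 ± 0.10 (adjusted p = 0.0718). Median centring ended the OCA call of Ccr3, and quantile normalization called its vehicle change (0.30, adjusted p = 0.0248). Its ligand Ccl24 was called lower, with vehicle alone. Ccl24, or eotaxin-2, had 4.30, 4.60 and 4.79 in knockout livers, against 5.00, 5.04 and 5.40 in wild-type livers, with vehicle, and 4.20, 4.62 and 5.17 in knockout livers, against 4.26, 4.92 and 5.25 in wild-type livers, with OCA. It fell by 0.50 on the log2 scale with vehicle (SE 0.14, adjusted p = 0.00964), where no values crossed, and its change with OCA was −0.21 ± 0.14 (adjusted p = 0.309). Median centring called Ccl24 lower with OCA as well (−0.40, adjusted p = 0.0221).

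Ccl25 was lower in knockout livers in both comparisons. Ccl25, the ligand of the gut- and thymus-homing receptor Ccr9, had 5.91, 6.11 and 6.24 in knockout livers, against 6.25, 6.64 and 6.73 in wild-type livers, with vehicle, and 5.98, 6.11 and 6.18 in knockout livers, against 6.44, 6.65 and 6.96 in wild-type livers, with OCA. No value of one genotype reached the other. The change was −0.49 ± 0.09 with vehicle (adjusted p = 1.10e-04) and −0.60 ± 0.09 with OCA (adjusted p = 6.43e-06), and its further probe set gave −0.67 and −0.64. Ccr9 had 3.51, 3.62 and 4.15 in knockout livers, against 3.32, 3.58 and 3.85 in wild-type livers, with vehicle, and 3.59, 3.79 and 4.26 in knockout livers, against 3.31, 3.58 and 3.83 in wild-type livers, with OCA. It was not called (adjusted p = 0.472 and 0.0824).

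Cxcl14 and Ccl22 were called higher with vehicle alone. Cxcl14, an epithelial and stromal ligand with no settled receptor, had 5.07, 5.48 and 5.98 in knockout livers, against 4.47, 4.96 and 5.64 in wild-type livers, with vehicle, and differed by 0.54 ± 0.15 (adjusted p = 0.00939). With OCA it had 5.46, 5.52 and 5.71 in knockout livers, against 5.08, 5.21 and 5.81 in wild-type livers, and the difference was 0.27 ± 0.15 (adjusted p = 0.19). Quantile normalization ended the vehicle call (0.38, adjusted p = 0.0642). Ccl22, a dendritic cell and macrophage ligand of Ccr4, had 3.72, 3.80 and 4.59 in knockout livers, against 3.46, 3.60 and 3.70 in wild-type livers, with vehicle, and 3.63, 3.91 and 4.19 in knockout livers, against 3.42, 3.64 and 3.80 in wild-type livers, with OCA. Its vehicle difference of 0.34 ± 0.12 (adjusted p = 0.0417) rested on knockout mouse 4, at 4.59. It was 0.21 (adjusted p = 0.122) without that mouse, and the call was also lost without knockout vehicle mouse 1 or 6 and without wild-type vehicle mouse 2, 3, 4 or 6.

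Of the pairs of groups without any crossing value, 6 members were higher and 3 lower in every knockout liver with vehicle, and 9 higher and 1 lower with OCA. Over all genes these shares were 9.4% and 5.67% with vehicle and 10.9% and 7.48% with OCA. The 32 genes called in no comparison ranged from −0.33 to 0.31 with vehicle and from −0.33 to 0.29 with OCA. Among these were the mucosal ligands Ccl20, Ccl28 and Cxcl17, the eosinophil ligands Ccl11 and Ccl26, the Ccr4 ligand Ccl17, Cxcl15, and the T cell receptors Ccr4, Ccr6, Ccr8 and Ccr10 with the Ccr1-related Ccr1l1. They also included the neutrophil ligands Cxcl1, Cxcl2, Cxcl3 and Cxcl5, and their receptors Cxcr1 and Cxcr2. Cxcl2 differed by 0.31 ± 0.12 with vehicle (adjusted p = 0.0505) and 0.02 ± 0.12 with OCA (adjusted p = 0.935). Cxcr1 had 3.62, 3.85 and 4.02 in knockout livers, against 3.59, 3.80 and 3.90 in wild-type livers, with vehicle, and 3.65, 3.86 and 4.07 in knockout livers, against 3.59, 3.83 and 3.94 in wild-type livers, with OCA (adjusted p = 0.648 and 0.519). Of the 11 measured neutrophil markers none was called with vehicle and 1, Camp, was lower with OCA (−0.39 ± 0.11, adjusted p = 0.00715).

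The highest Cxcl13 and Cxcl1 values came from single mice. Cxcl13, the ligand that gathers Cxcr5-bearing B cells, had 4.85, 5.36 and 5.50 in knockout livers, against 6.71, 6.93 and 9.14 in wild-type livers, with vehicle, and no values crossed. The change was −2.10 ± 0.58 (4.28-fold lower, adjusted p = 0.00778). With OCA it had 4.77, 5.63 and 8.68 in knockout livers, against 6.43, 6.55 and 10.15 in wild-type livers, a change of −1.20 ± 0.58 (adjusted p = 0.127). Median centring called Cxcl13 lower with OCA as well (−1.39, adjusted p = 0.0428). The knockout value of 8.68 came from OCA mouse 3, and the other 5 lay between 4.77 and 5.70. The wild-type value of 10.15 came from OCA mouse 6, and the other 5 lay between 6.43 and 6.92.

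Leaving out OCA-treated knockout mouse 3 made the Cxcl13 change with OCA −1.74 ± 0.50 (adjusted p = 0.0102). Leaving out OCA-treated wild-type mouse 6 in its place made it −0.60 ± 0.47 (adjusted p = 0.373). In vehicle-treated livers the change without wild-type mouse 6, which read 9.14, was −1.74 ± 0.57 (adjusted p = 0.0236). Its receptor Cxcr5 differed by −0.02 ± 0.11 with vehicle and −0.21 ± 0.11 with OCA and was not called (adjusted p = 0.916 and 0.153). Of the 7 measured B cell markers none was called with vehicle and 1, Fcrla, was lower with OCA (−0.28 ± 0.10, adjusted p = 0.0437).

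In 3 of the 4 groups the mouse with the highest Cxcl13 also had the highest sum of Kupffer cell markers. On the linear signal scale the summed 12 Kupffer markers came to 8575.6 in OCA-treated knockout mouse 3, against 4917.9 to 5383.7 in the rest of its group. In OCA-treated wild-type mouse 6 the sum was 5313.3, against 2253.6 to 3060.2. In wild-type vehicle mouse 6 it was 5164.4, against 2666.2 to 4323.5. In the vehicle-treated knockouts the highest Cxcl13, 5.50, was in mouse 1, with a sum of 5522.9, and the highest sum, 5775.8, was in mouse 3. Marco, a macrophage scavenger receptor picked from that list after its values were seen, read 9.64 in OCA-treated knockout mouse 3, 9.11 in OCA-treated wild-type mouse 6 and 7.89 in wild-type vehicle mouse 6. Between genotypes the 2 went opposite ways. The median Kupffer sum was 5492.4 in knockout and 3215.3 in wild-type livers with vehicle, and 5354.1 and 2709.8 with OCA. The median Cxcl13 was 5.36 in knockout and 6.93 in wild-type livers with vehicle, and 5.63 and 6.55 with OCA. The part of macrophage RNA in the Cxcl13 values was not tested.

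Cxcl1, the main liver ligand for the neutrophil receptor Cxcr2, had 6.39, 6.50 and 6.97 in knockout livers, against 5.47, 6.50 and 10.33 in wild-type livers, with vehicle, and 6.42, 6.71 and 7.51 in knockout livers, against 6.45, 6.81 and 8.79 in wild-type livers, with OCA. The 10.33 came from wild-type vehicle mouse 6 and the 8.79 from OCA-treated wild-type mouse 5. The differences were −0.33 ± 0.53 with vehicle and −0.33 ± 0.53 with OCA (adjusted p = 0.706 and 0.699). Without wild-type vehicle mouse 6 the vehicle difference was 0.36 ± 0.33 (adjusted p = 0.455), and without OCA-treated wild-type mouse 5 the OCA difference was 0.00 ± 0.52 (adjusted p = 0.998). Wild-type vehicle mouse 6 also had the highest Cxcr2 of its group, 3.72 against 2.42 to 2.91, and the lowest Cxcl12, 8.44 against 9.03 or more. Its summed neutrophil markers came to 246.6, against 120.6 to 124.0 in the rest of its group. The corresponding sums were 169.9 in OCA-treated wild-type mouse 5 and 179.2 in mouse 6, against 120.0 to 127.2 in the other 4. In OCA-treated knockouts the highest sum, 179.3, was in mouse 3, with Cxcl1 at 6.78. The highest Cxcl1 there, 7.51, was in mouse 4, with a sum of 135.7. In vehicle-treated knockouts the highest Cxcl1, 6.97, was in mouse 6, with a sum of 131.3, and the highest sum, 146.6, was in mouse 3.

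**Figure D3:**
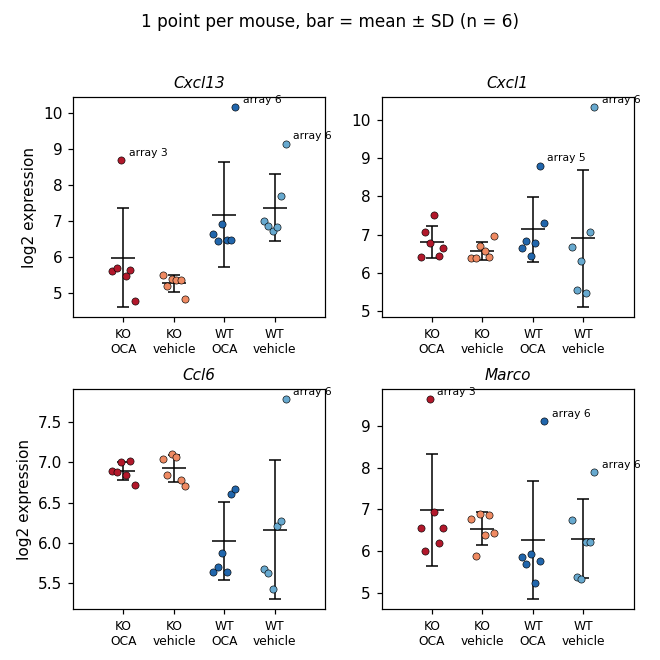
Log2 signal of Cxcl13, Cxcl1, Ccl6 and the macrophage gene Marco in OCA-treated knockout, vehicle-treated knockout, OCA-treated wild-type and vehicle-treated wild-type livers; points are mice, bars are mean ± SD (n = 6), and the named mice over 1 log2 unit from the mean of the rest of their group are labelled. Mouse 3 of the OCA-treated knockouts and mouse 6 of both wild-type groups stand highest for both Cxcl13 and Marco.

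OCA itself changed no member past the threshold in either genotype. In knockout livers limma called 0 of 48 (2 at unadjusted p under 0.05), against 0.0159% of all genes called, and the changes ran from −0.24 to 0.71. In wild-type livers it called 0 of 48 (3 at unadjusted p under 0.05), against 0.0691% of all genes, and the changes ran from −0.35 to 0.30. The smallest adjusted p was 0.883 in knockout livers and 0.278 in wild-type livers. In each genotype the 95% interval lay within a 2-fold change either way for 46 of the 48 genes. The 2 wider ones were Cxcl1 and Cxcl13.

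The 3 wild-type changes with an unadjusted p under 0.05 were all decreases. Ccl11 changed by −0.25 ± 0.08 (95% interval −0.43 to −0.08), Ccl17, a T cell ligand of Ccr4, by −0.35 ± 0.13 (95% interval −0.62 to −0.08) and Ccl5 by −0.31 ± 0.12 (95% interval −0.55 to −0.07). Their adjusted p were 0.278, 0.378 and 0.378. In knockout livers Cxcl3 changed by −0.22 ± 0.08 and Ccl12 by −0.13 ± 0.06 (adjusted p = 0.883 and 0.96). The OCA change of Ccl2 was 0.21 ± 0.15 in knockout and 0.05 ± 0.15 in wild-type livers, that of Ccl3 was 0.19 ± 0.19 and 0.15 ± 0.19, and that of Cxcl10 was 0.32 ± 0.20 and 0.12 ± 0.20.

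The difference of the OCA effects, knockout minus wild type, called 0 of 48 members (3 at unadjusted p under 0.05), and 0% of all genes. The smallest adjusted p, 0.717, belonged to Ccl17, whose OCA change was 0.15 ± 0.13 in knockout and −0.35 ± 0.13 in wild-type livers. With Ccl5 and Cxcl3 it made up the 3. The interval of the difference was within 2-fold for 46 genes and again wider for Cxcl1 (−1.56 to 1.55) and Cxcl13 (−0.80 to 2.60).

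**Figure D4:**
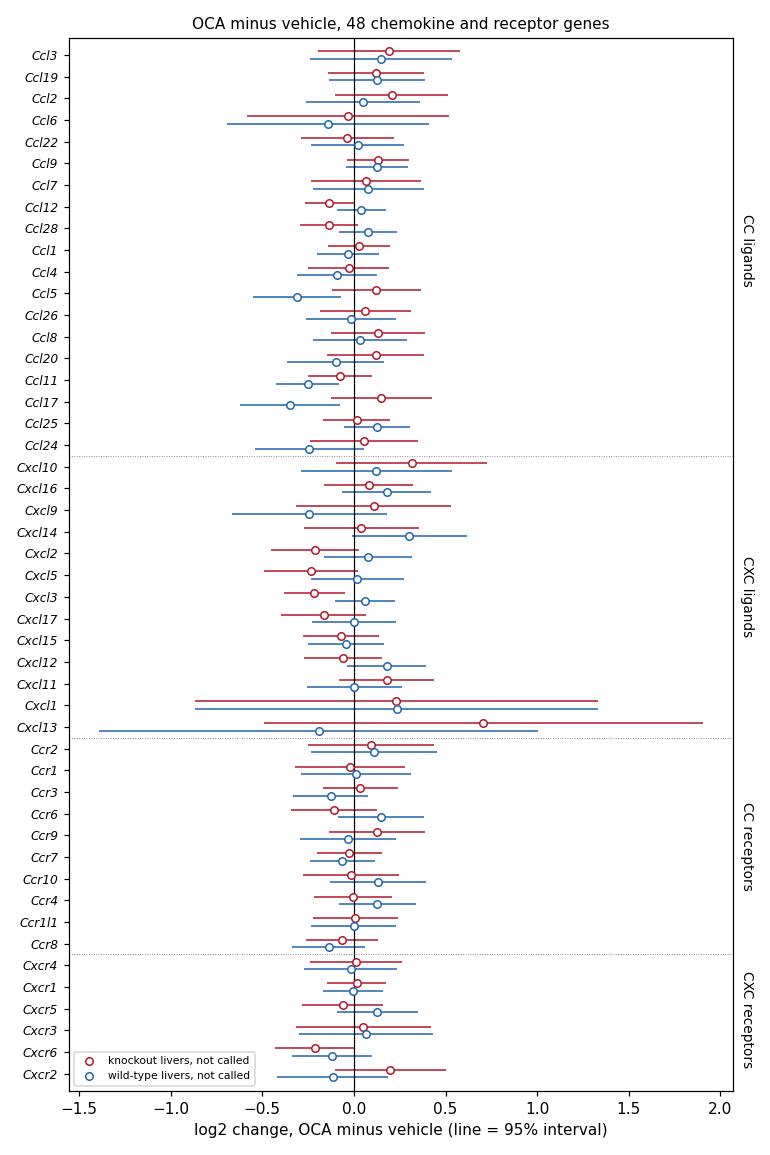
Log2 change with OCA, OCA minus vehicle, of each of the 48 genes in knockout livers (red, upper point of each row) and wild-type livers (blue, lower point), n = 6 mice a group, with 95% intervals. No gene had adjusted p < 0.05, and all changes lie between −0.35 and 0.71.

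The array names carry a number of 5, 7 or 9, and the sources used here do not say what it stands for. All OCA-treated knockout arrays carry 9 and all OCA-treated wild-type arrays carry 5, so in the OCA comparison number and genotype cannot be told apart directly. The vehicle groups are mixed: 2 knockout arrays carry 9 and 4 carry 7, and 4 wild-type arrays carry 7 and 2 carry 5. Among the 4 knockout and 4 wild-type vehicle arrays with number 7, 14 members were called, 10 higher and 4 lower. The share of all genes called was not computed for this fit or those with a block, so their counts show nothing particular to the members. With the number as a block 11 members were called with vehicle and 8 with OCA, and the OCA estimate passes only through the vehicle arrays. Of the 10 genes called in both comparisons 7 were still called in both. Ccl3 (1.28, adjusted p = 0.0685), Cxcl10 (1.25, adjusted p = 0.0924) and Cxcr4 (0.71, adjusted p = 0.0796) lost the call with OCA alone. With wild-type vehicle mouse 6 also left out, the block ended the OCA calls of Ccl3, Ccl6, Ccl19, Ccl25, Cxcl9, Ccr2 and Cxcr4. Of the 10, only Ccl2, Cxcl10 and Cxcl16 were then called in both comparisons.

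The block also ended the vehicle calls of Ccl24 (−0.38, adjusted p = 0.132), Cxcl13 (−1.61, adjusted p = 0.102) and Ccl22 (0.40, adjusted p = 0.0655), and the OCA call of Ccr3 (0.50, adjusted p = 0.193). Within number 7 Ccl24 and Cxcl13 had the same changes and kept their calls (adjusted p = 0.00348 and 1.17e-05). Under the block Ccl6 and Ccr2 had larger OCA values, 2.15 and 1.46, and Ccl5 and Cxcl9 had 0.99 and 1.80. These values pass in part through wild-type vehicle mouse 6, whose array carries number 5. Without that mouse the block called Ccl5 with OCA but not Ccl6, Ccr2 or Cxcl9. For the OCA effect in wild-type livers the block called 1 member, Ccl5 (−0.58, adjusted p = 0.0319), which within number 5, with 6 OCA-treated and 2 vehicle arrays, was not called. Without wild-type vehicle mouse 6 the vehicle comparison called 17 members, 12 higher and 5 lower, and the share of all genes was again not computed.

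Among chemokines outside the symbol rule, 4 of 6 were higher in knockout livers with vehicle and 3 with OCA, and none was lower. Mif, macrophage migration inhibitory factor, was 0.24 ± 0.06 higher with vehicle and 0.24 ± 0.06 with OCA (adjusted p = 0.00217 and 0.0019). Cx3cl1, or fractalkine, was 0.45 ± 0.11 and 0.44 ± 0.11 higher (adjusted p = 0.0023 and 0.00249). Its receptor Cx3cr1, carried by monocytes and macrophages, was 1.08 ± 0.13 higher with vehicle and 0.94 ± 0.13 with OCA (adjusted p = 3.86e-07 and 2.69e-06). Of the 8 measured chemokine-binding receptors outside the rule, 3 were higher with vehicle and 6 with OCA, with none lower. The scavenging receptor Ackr2 differed by 0.18 ± 0.13 with vehicle (adjusted p = 0.341) and 0.73 ± 0.13 with OCA (adjusted p = 1.28e-04).

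Genes that carry the chemokine signal inside the cell were mostly higher in knockout livers. Of 27 measured chemokine receptor signalling genes, 15 were higher with vehicle and 20 with OCA, and none was lower. Over all genes 15.4% were called higher with vehicle and 17.4% with OCA, and 12.1% and 13.3% lower. The median change of the 27 genes was 0.40 and 0.50, against −0.03 and −0.02 over all genes. Counts of this and the other background lists were not repeated with median centring, which shifts every knockout change by −0.17 with vehicle and −0.19 with OCA. The inhibitory G protein subunit Gnai2, to which chemokine receptors couple, was 0.48 ± 0.06 and 0.51 ± 0.06 higher (adjusted p = 1.21e-06 and 5.31e-07). The phospholipase Plcb2 was 0.75 ± 0.09 and 0.45 ± 0.09 higher (adjusted p = 6.35e-07 and 4.92e-04), and the small GTPase Cdc42 0.40 ± 0.05 and 0.51 ± 0.05 (adjusted p = 9.65e-07 and 2.50e-08).

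Upstream cytokines and their receptors were mixed. Of 20 measured, 6 were higher and 3 lower with vehicle, and 8 higher and 3 lower with OCA. The interferon-gamma receptor gene Ifngr1 was 0.41 ± 0.08 and 0.56 ± 0.08 higher (adjusted p = 1.47e-04 and 2.17e-06), and Il33, a stromal alarmin, 0.60 ± 0.13 and 0.92 ± 0.13 (adjusted p = 8.32e-04 and 3.94e-06). Il18, an inducer of interferon-gamma, fell by 0.58 with vehicle and by 0.38 with OCA (adjusted p = 3.18e-06 and 5.80e-04). The AP-1 subunit gene Jun was 1.54 ± 0.22 and 1.59 ± 0.22 higher (adjusted p = 5.67e-06 and 3.27e-06), and the NF-kappaB inhibitor gene Tnfaip3 0.72 ± 0.13 and 0.71 ± 0.13 (adjusted p = 8.04e-05 and 8.00e-05).

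Markers of the cells that carry the receptors moved with genotype for macrophages and little for lymphocytes and neutrophils. Of 10 measured markers of monocytes and monocyte-derived macrophages, 7 were higher in knockouts in both comparisons. Their summed linear signal was 769.8 to 902.7 with OCA and 785.0 to 978.8 with vehicle in knockout livers, against 349.8 to 445.4 with OCA and 307.4 to 484.3 with vehicle in wild-type livers. Gpnmb, a marker of lipid-loaded macrophages, had the largest change, 3.42 ± 0.11 with vehicle and 3.34 ± 0.11 with OCA (adjusted p = 1.14e-17 and 1.69e-17). Of the 12 Kupffer markers 7 were higher and 1 lower with vehicle, and 9 higher and 1 lower with OCA. The exception was the scavenger receptor Cd163 (−1.38 ± 0.19 and −1.07 ± 0.19, adjusted p = 3.75e-06 and 9.48e-05), while the Kupffer lectin Clec4f was 0.47 ± 0.09 and 0.65 ± 0.09 higher.

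Dendritic cell markers were higher for 2 of 8 with vehicle and 4 of 8 with OCA. All 10 stellate cell markers were higher with OCA and 9 with vehicle, with Col1a1 1.54 ± 0.15 higher with vehicle and 1.20 ± 0.15 with OCA (adjusted p = 1.18e-08 and 5.85e-07). Of the 10 hepatocyte markers 4 were lower with vehicle and 8 with OCA, none higher. The part of cell numbers in the higher ligands was not tested.

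**Figure D5:**
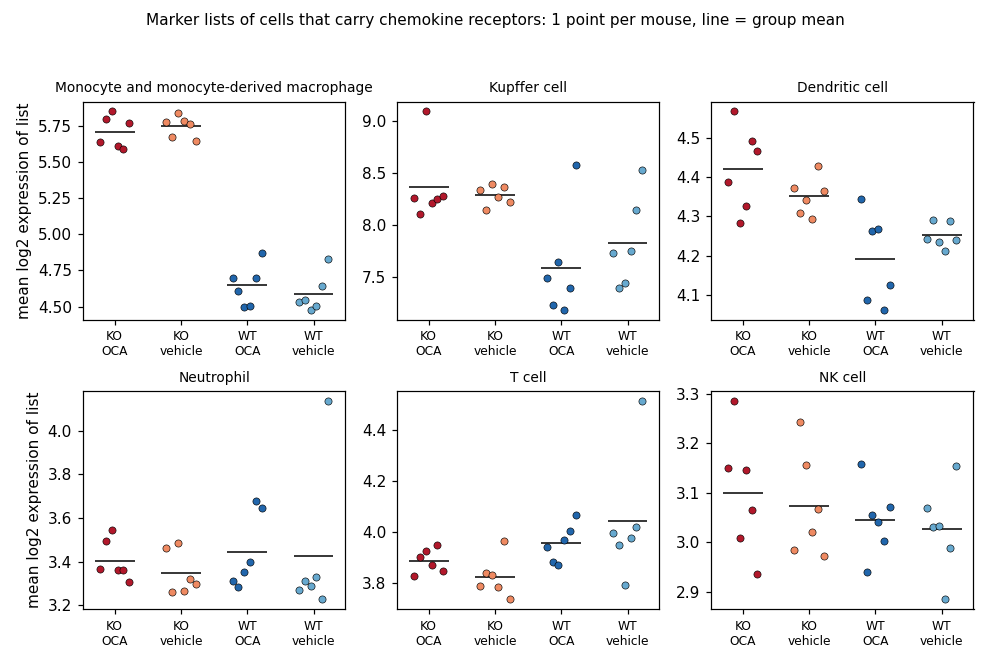
Mean log2 signal per mouse over marker lists of 6 cell types that carry chemokine receptors, in the order OCA-treated knockout, vehicle-treated knockout, OCA-treated wild type and vehicle-treated wild type; points are mice and lines are group means (n = 6). Every knockout point lies above every wild-type point for monocyte-derived macrophages, and the neutrophil and T cell lists overlap between genotypes.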

How the data were processed

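Livers of 24 mice were each hybridised to 1 array; the labels give every sample its own mouse, so replicates are separate animals. The authors deposited 1 table of log2 signals made by RMA, per the submitters' processing notes; the log base is not stated there and was taken from the range of values. No depth or detection call accompanies the values. Of 35556 probe sets, 21218 mapped to 1 symbol through the platform annotation; 1881 with several symbols and 12457 not listed were left out. The probe set of highest mean was kept for each of 18820 genes. limma 3.58.1 (R 4.3.3) fitted 4 group means to all genes, with Benjamini-Hochberg adjustment over all genes and a threshold of 0.05. The fit was checked on simulated data. The members and gene lists were chosen with earlier results of these data known. Described with full values were the members called in any comparison and the 3 of highest mean in each role class; from each background list, up to 4 called genes of smallest p. Other members were named after their values were seen, as neighbours, ligands or receptors of these. Alternatives covered centring, quantile normalization, filters, variance models, probe set choice, array number, replicate block and leaving out each mouse. Promoter sequences are RefSeq's, build GRCm38.p6. In the text, called means an adjusted p under 0.05. One promoter motif and the counts of one regulator list are not reported here.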

Additional observations from a re-analysis of the deposited data

Results flagged for a closer look

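In 12 of the 92 sets of 6 mice examined for the named members, the highest or lowest mouse stood far from the rest by Dixon's test, which chance does in about 1 of 20 sets. Wild-type vehicle mouse 6 gave 3 of these, with Cxcl1 at 10.33, Ccl6 at 7.79 and Cxcl12, the low one, at 8.44. OCA-treated knockout mouse 3 had Cxcl13 at 8.68 and Cxcl16 at 7.38. OCA-treated wild-type mouse 6 had Cxcl13 at 10.15, and mouse 5 of that group had Cxcl1 at 8.79 and Cxcl14 at 5.81. Vehicle-treated knockout mouse 4 had Ccl22 at 4.59, mouse 1 had the low Cxcl10 of 6.71, and mouse 5 had the low Cxcr3 of 3.27. Wild-type vehicle mouse 5 had Ccl24 at 5.40.

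Probe sets that map to several symbols were outside the comparisons, and some of these differed between knockout and wild type in limma's test. A pair with identical values, for Gm13306 and Ccl27a (a skin-homing T cell ligand), changed by −0.4154 with vehicle (adjusted p = 0.00590) and −0.4131 with OCA (adjusted p = 0.00530). The set for Gm13306, Gm21953 and Ccl27a changed by −0.3697 with vehicle (adjusted p = 0.00633) and −0.3825 with OCA (adjusted p = 0.00417). A further Ccl27a set did not pass, at 0.36 with vehicle (adjusted p = 0.0736). The set shared by Zmynd15 and Cxcl16 was 0.4253 higher with vehicle (adjusted p = 0.0127) and was not called with OCA, at 0.15 (adjusted p = 0.414). Signal of the genes on 1 set cannot be told apart.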

How the results depend on the processing

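Across the 26 results for single genes that the fit as reported had called, 653 alternative values were computed. Of these values 0 changed direction and 50 lost their call, 16 of them among the 312 that leave out 1 mouse. The alternatives reuse largely the same arrays, so a change of direction was unlikely from the start. Calls gained by results outside the 26 are not in this total. Leaving out 1 mouse gave 11 to 17 members called between knockout and wild type with vehicle, 12 to 15 with OCA, and 0 to 0 for OCA in either genotype and for the difference of the OCA effects. The lowest count, 11, came without wild-type vehicle mouse 2 and the highest, 17, without mouse 6. Restricting the test to genes at or above the median gene left 13 members, of which 9 were called with vehicle. Centring arrays on their median called 25 with OCA, 9 higher and 16 lower. For none of these alternatives was the share of all genes called computed, so the counts show nothing particular to the members. The array number as a block called 1 member for OCA in wild-type livers (Ccl5), and with wild-type vehicle mouse 6 also left out it called 6 in the OCA comparison; the cause was not tested. With the replicate number as a block the counts were 14 with vehicle and 12 with OCA, and 0 in the other 3 comparisons. The numbers do not pair the mice: deviations of same-numbered mice correlated between −0.054 and 0.17, so the block is given only here. Without detection calls, members of low signal carry the least information.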

Other observations

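Other cell types of the liver gave mixed counts between knockout and wild type in limma's test. Of 9 measured sinusoidal endothelial markers, 0 were higher and 2 lower with vehicle, and 2 were higher and 0 lower with OCA. Of 7 cholangiocyte markers, 3 were higher and 1 lower with vehicle, and 0 higher and 1 lower with OCA. Epcam, an epithelial adhesion molecule of bile duct cells, changed by 0.58 ± 0.11 with vehicle (adjusted p = 1.23e-04) and 0.18 ± 0.11 with OCA (adjusted p = 0.216). Among 3 measured erythroid markers only Alas2, the heme synthesis enzyme of red cell precursors, was called, with changes of −1.15 ± 0.11 with vehicle and −1.15 ± 0.11 with OCA (adjusted p = 1.13e-08 and 9.96e-09). Pf4, a platelet CXC chemokine whose symbol the rule does not take, was 0.42 ± 0.12 higher with vehicle and 0.42 ± 0.12 with OCA (adjusted p = 0.00862 and 0.0076).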
